A study of Mus musculus with 24 samples.

Results

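The lincRNAs described here are the testis transcripts that lie beside claudin genes in the mouse genome. A lincRNA is a long noncoding RNA transcribed from between protein-coding genes. The study lists the testis-specific lincRNAs that have a protein-coding gene nearby, and every lincRNA of that list with a neighbour whose symbol starts with Cldn was taken. There were 3 such lincRNAs among the 193 read from the list, and 60804 transcript probes on the array. They were Wbscr25 (probe ASMM10P055788), beside Cldn3 and Abhd11; AK006859 (probe ASMM10P039346), beside Cldn24, Cldn22 and Wwc2; and AK017123 (probe ASMM10P032539), beside Cldn13. The study had chosen the listed lincRNAs for high signal in testis on the same tissue arrays used here, so the testis signal is given below as a description, and no support is drawn from it.

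The data were 24 one-colour microarrays in 8 groups of 3. The tissue groups were brain, heart, kidney, liver and testis, all from male ICR mice aged 8 weeks, with no treatment named. The other groups were cultures of mouse cell lines: F9, an embryonal carcinoma line grown on gelatin; and GC-1 and GC-2, immortalized germ cell lines of the spermatogonial and spermatocyte steps. Each line is a single immortal line, so its 3 arrays carry the spread between cultures and not between animals, and none of the lines holds spermatids, Sertoli cells or Leydig cells. The methods state that replicates were biological.

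Claudins are membrane proteins that seal the space between neighbouring epithelial cells at the tight junction. In the seminiferous epithelium, tight junctions between Sertoli cells form part of the blood-testis barrier, behind which spermatocytes and spermatids develop, and Cldn3 is among the claudins known at that barrier. Cldn3, Cldn4 and Cldn13 lie together on mouse chromosome 5, in the region matching the human Williams-Beuren syndrome region from which Wbscr25 takes its name. Abhd11 encodes a mitochondrial hydrolase, and Wwc2 a WW and C2 domain protein of the Hippo pathway. Cldn22 and Cldn24 are small neighbouring claudin genes on chromosome 8.

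On the GRCm38 build, the Wbscr25 transcript of the array (ENSMUST00000131403) spans chr5:134992530-135000507 on the minus strand, 7978 bases in all. It begins 8644 bases from Abhd11 and ends 5053 bases from Cldn3, both of which are on the plus strand. The RefSeq lncRNA gene Wbscr25 is longer, at chr5:134987433-135001350, and overlaps Cldn3 (chr5:134986214-134987476) by 44 bases. The AK006859 transcript spans chr8:47811724-47818217 on the minus strand and has the same limits as the RefSeq lncRNA gene 1700061N14Rik. Its start lies 3925 bases from Cldn24 (chr8:47822143-47822805), 6264 bases from Cldn22 and 7864 bases from Wwc2. Cldn24 and Cldn22 are on the plus strand and point away from it. AK017123 is the shortest, 849 bases at chr5:134919790-134920638 on the plus strand, 4259 bases from Cldn13 and 24484 bases from Cldn4.

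**Figure D1:**
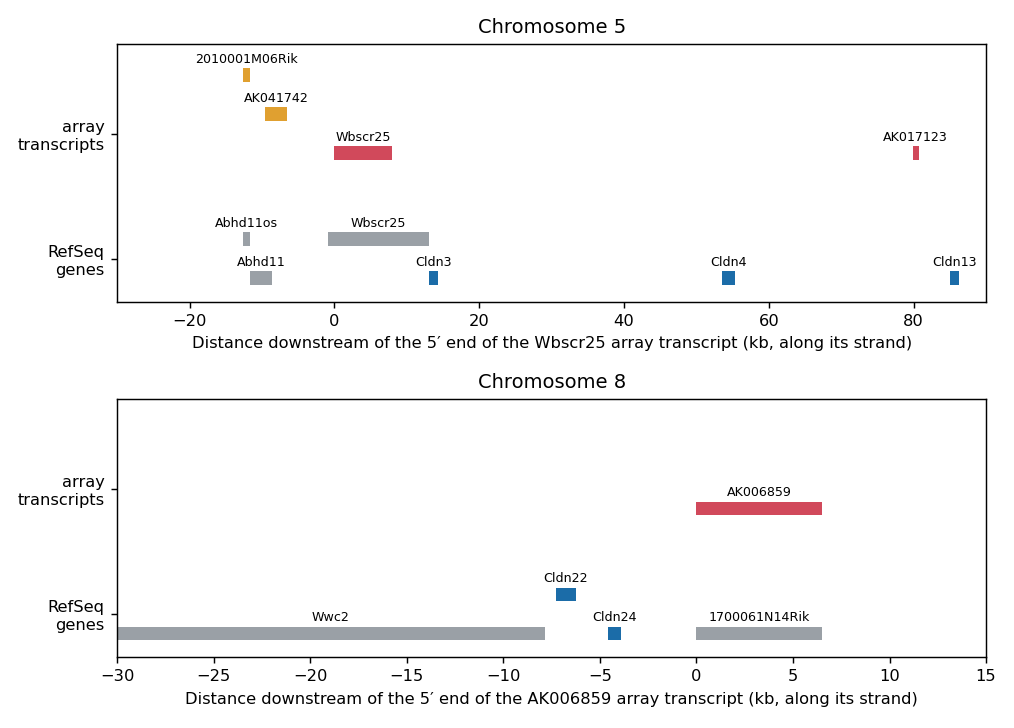
Positions of the array transcripts and RefSeq genes around the lincRNAs on chromosomes 5 and 8, as distance in kb from the 5′ end of Wbscr25 (upper panel) or AK006859 (lower panel), along the strand of that lincRNA. Red bars are the 3 lincRNAs, orange bars the antisense transcripts at Abhd11, blue bars claudin genes and grey bars other genes; Wwc2 runs past the left edge of the lower panel.

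The supplementary tables, as read here, showed no probe sequence for the 3 lincRNAs. They showed those of both other array transcripts of the chromosome 5 locus, which are shown because their signal is the nearest to Wbscr25 that could be read. Both are antisense to exons of Abhd11 on the minus strand: 2010001M06Rik (ENSMUST00000154060, chr5:135012122-135013154), which corresponds to the RefSeq gene Abhd11os and overlaps Abhd11 by 54 bases, and AK041742 (chr5:135007093-135010108), which overlaps Abhd11 by 957 bases. Both probes have 60 bases, of which 44 are G or C in the first and 21 in the second. The capitals mark AATAAA, the usual polyadenylation hexamer, searched in the orientation given by the table. It has 1 match in the probe of AK041742 and 0 in that of 2010001M06Rik.
2010001M06Rik: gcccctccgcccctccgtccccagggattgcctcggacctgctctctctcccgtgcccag
AK041742: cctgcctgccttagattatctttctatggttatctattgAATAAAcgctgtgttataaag

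The start of Abhd11os was the one lncRNA start at these loci with a RefSeq promoter window (250 bases before to 50 after the start, GRCm38.p6, chr5:135013108-135013407, minus strand). It is shown because this transcript gave signal in every tissue, unlike the neighbouring Wbscr25. Capitals mark GGGCGG, searched on both strands, which has 1 match here and at least 1 in 35.7% of all 32851 windows. The window holds 7 CG dinucleotides, and the median over all windows was 7.
Abhd11os: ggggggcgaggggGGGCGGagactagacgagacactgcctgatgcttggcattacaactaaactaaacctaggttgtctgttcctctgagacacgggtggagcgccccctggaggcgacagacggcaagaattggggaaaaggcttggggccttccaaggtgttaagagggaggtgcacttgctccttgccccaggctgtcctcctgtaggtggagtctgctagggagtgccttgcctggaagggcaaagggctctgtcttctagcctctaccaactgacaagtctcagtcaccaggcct

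The arrays differed in brightness. The signal at the 75th percentile of the probes was 30.7 on the dimmest array, liver replicate 2, and 384 on the brightest, testis replicate 1, and between 18257 and 37393 probes were flagged well above background. Liver replicate 1 stood apart, with the 95th percentile of its negative controls at 13.6 against at most 4.97 on the other arrays. Of the markers identified, the Snap25 lncRNA was well above background only in brain. The Gap43 lncRNA, also neuronal, was highest in brain at 7.31 ± 0.07 (SD, n = 3) but was read in the 3 lines and on 2 heart arrays as well. Star, a Leydig cell gene, reached a scaled level of 2.58 ± 0.34 (SD, n = 3) in testis and was also well above background in GC-1 and GC-2. Zfp42, a pluripotency gene, reached 4.65 ± 0.39 (SD, n = 3) in F9. It was also well above background on the 3 testis arrays, at -1.61 ± 0.26 (SD, n = 3). Stra8, a spermatogonial gene, was well above background in testis and F9 and not in GC-1 or GC-2. No marker of heart, kidney or liver was checked. Of 19 claudin, tight junction and Sertoli genes looked for, 0 had an mRNA probe named in the tables as read here, which name 5.72% of the probes, and the array files carry probe numbers alone. The claudin mRNAs themselves, Cldn3 and Cldn24 among them, were therefore not analysed here.

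Wbscr25 was bright in testis and near background elsewhere. Its processed signal, the array software's background-corrected intensity, was 45101.5, 33612 and 40755 on the testis arrays. The brain arrays followed at 14.7, 14.01 and 16.5. The remaining 18 arrays read between 2.62 and 8.51, and none of them was well above background. The testis arrays lay far above all others and agreed closely, the highest being 1.34 times the lowest.

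AK006859 was read in testis alone. Its signal was 15930, 37334 and 40218 on the testis arrays, so replicate 1 was the low one and the highest was 2.53 times the lowest. On the other 21 arrays it ran from 2.94 to 6.57, the highest being liver replicate 1, with a median of 3.498. It was well above background on 0 of these 21 arrays.

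AK017123 was also well above background in testis alone. The testis arrays gave 225.03, 268 and 292, the highest 1.299 times the lowest. The other 21 arrays gave 2.98 to 6.5985, the highest being heart replicate 1, and 0 of them were well above background. The groups did not overlap for any of the 3 lincRNAs when testis was set against each other tissue or line. Over all 60804 probes, limma called 20.4% higher in testis than in brain, 19.0% than in heart, 19.3% than in kidney, 18.0% than in liver, 18.7% than in F9, 19.5% than in GC-1 and 20.0% than in GC-2. Nothing is read from these counts for the 3 lincRNAs, since testis signal put them on the list. In whole tissue, fewer cells of a type and less RNA per cell cannot be told apart.

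**Figure D2:**
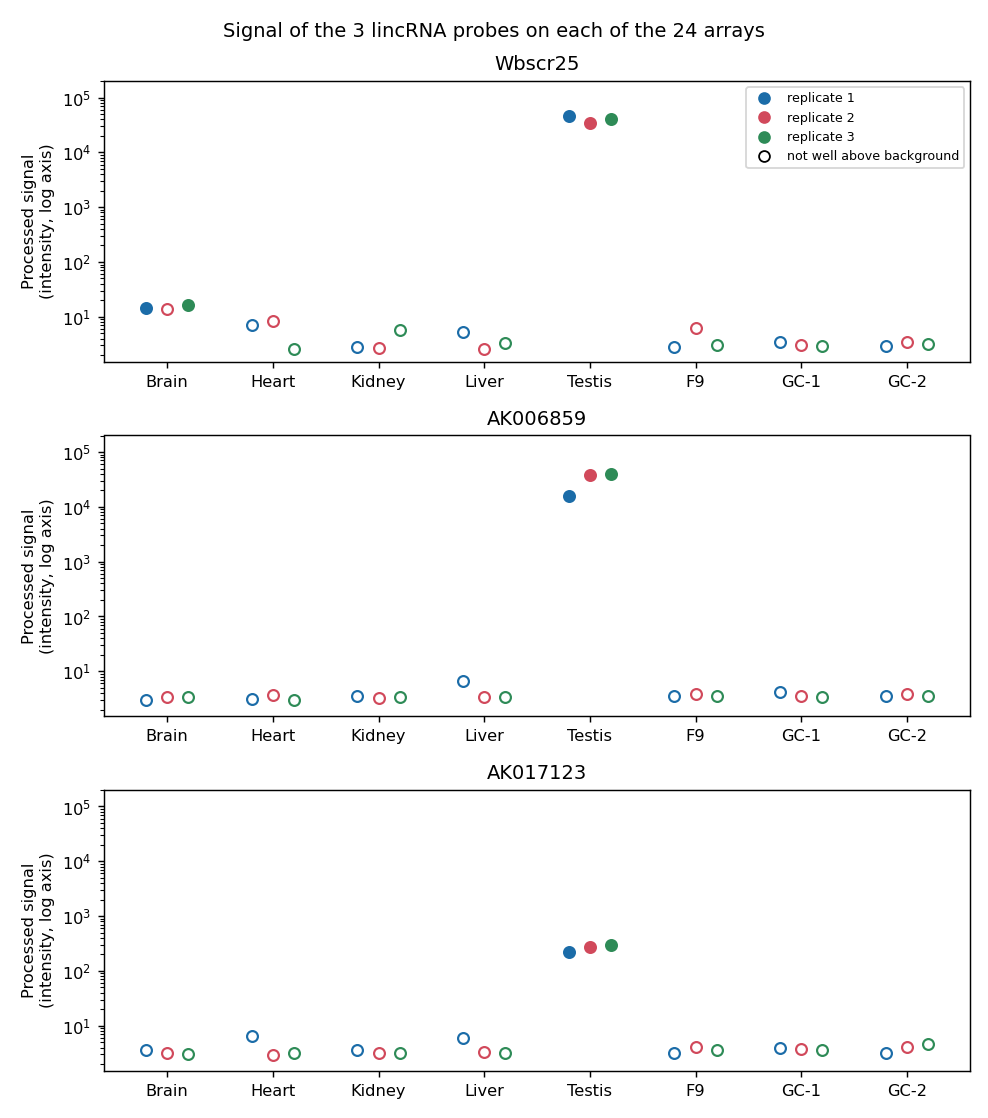
Processed signal (log axis) of Wbscr25, AK006859 and AK017123 on each of the 24 arrays by group, 1 point per array, with colours for replicate numbers and open points for signals not well above background. The testis points of each lincRNA lie above all its other points, and the brain arrays of Wbscr25 between 14.01 and 16.5 are the only others that come near the detection limit.

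Scaled levels were the log2 signal minus the 75th percentile of each array. In testis they were 6.86 ± 0.06 (SD, n = 3) for Wbscr25, 6.40 ± 0.89 (SD, n = 3) for AK006859 and -0.39 ± 0.33 (SD, n = 3) for AK017123. A probe not well above background has only an upper limit there, so testis was compared with such groups as a lower bound, using on each array the lowest signal that was well above background. With 3 arrays a group, the number of arrays limits the precision.

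For Wbscr25 the testis signal was at least 752-fold that of heart, 756-fold that of kidney and 283-fold that of liver. Brain was well above background on 2 of its 3 arrays, and the fitted difference from testis was 10.07 on the log2 scale (SE 0.38), a fold of 1073. Against the lines the bounds were 617.5-fold for F9, 845-fold for GC-1 and 919.5-fold for GC-2. These line bounds depended on the processing. On the log2 scale they ran among the alternatives from 7.83 to 11.375 for F9, 8.00 to 11.34 for GC-1 and 8.09 to 11.39 for GC-2. The lowest came each time with normexp background correction.

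For AK006859 the bounds were 944-fold over brain, 548-fold over heart, 551-fold over kidney and 206-fold over liver. Over F9, GC-1 and GC-2 they were 450-fold, 616-fold and 670-fold. On the log2 scale these line bounds ran among the alternatives from 7.11 to 10.92, 7.29 to 10.89 and 7.37 to 10.93. The lowest again came with normexp. The liver bound was the smallest for each of the 3 lincRNAs, and liver arrays were the dimmest.

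For AK017123 the bounds were small: 8.53-fold over brain, 4.96-fold over heart, 4.98-fold over kidney and 1.87-fold over liver. Over the lines they ran from 4.07-fold in F9 to 6.06-fold in GC-2. These bounds depended on the processing: on the log2 scale, the bound over F9 ran from 0.79 to 4.13 among the alternatives, that over GC-1 from 0.99 to 4.10 and that over GC-2 from 1.08 to 4.14, the lowest each time with normexp background correction. The fitted value against liver, which uses signals at background, was 2.93 on the log2 scale (SE 0.25). Within single slides the plain differences in level of testis from the other groups were taken without a test. They ran from 9.97 to 12.52 for Wbscr25, from 8.30 to 12.20 for AK006859 and from 2.31 to 5.22 for AK017123, on the log2 scale. Apart from those of Wbscr25 from brain, they are differences from background signals and stand for no fold. Slide 1 set 1 testis array against 1 array of each group. Slide 2 set 2 against 2, for brain, kidney and liver alone.

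A call modelled on the study's criteria for a testis-specific transcript was then made for all probes, with limma in place of its test. It asked for a signal well above background on all 3 testis arrays and not on all 3 arrays of any other tissue, so that a probe flagged on 1 or 2 arrays of a tissue could still pass, and for at least 5-fold over each other tissue at an adjusted p of 0.05 or less. It selected 3057 of 60804 probes, or 5.03%. All 3 lincRNAs passed, as did 131 of the other 190 listed lincRNAs. The list was chosen on these arrays by like criteria, so nothing is read from this. The call of Wbscr25 rested on brain replicate 2, the one brain array on which its signal was not well above background. Without that array, 2 of the 3 lincRNAs passed and Wbscr25 did not. The signal of 14.01 on that array was close to its lowest signal well above background, 13.7. With the laxer flag for a positive and significant signal 2 also remained, and Wbscr25 had that flag on 8 of the 21 arrays outside testis, the 3 brain arrays among them. AK006859 had it on 1 and AK017123 on 3.

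**Figure D3:**
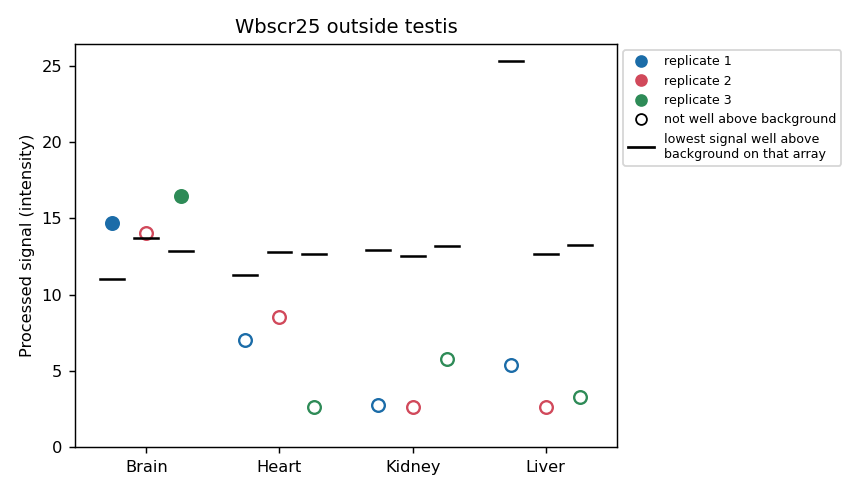
Processed signal of Wbscr25 in brain, heart, kidney and liver, 1 point per array, open where not well above background; each black bar is the faintest signal that its array still flagged well above background. Brain arrays read 14.01 to 16.5, heart, kidney and liver arrays 2.62 to 8.51, and the bar of liver replicate 1 is the highest.

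The fitted difference of testis from the nearest other tissue is the kind of value that put the lincRNAs on the list. It was 10.07 on the log2 scale for Wbscr25, 9.63 for AK006859 and 2.93 for AK017123. The median of the 3 was 9.63, that of the other 190 was 3.45 with a range from 0.53 to 11.74, and that of all probes was -2.68. The nearest tissue of AK006859 and AK017123 was at background, so these values are a description and no order of probes is read from them.

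**Figure D4:**
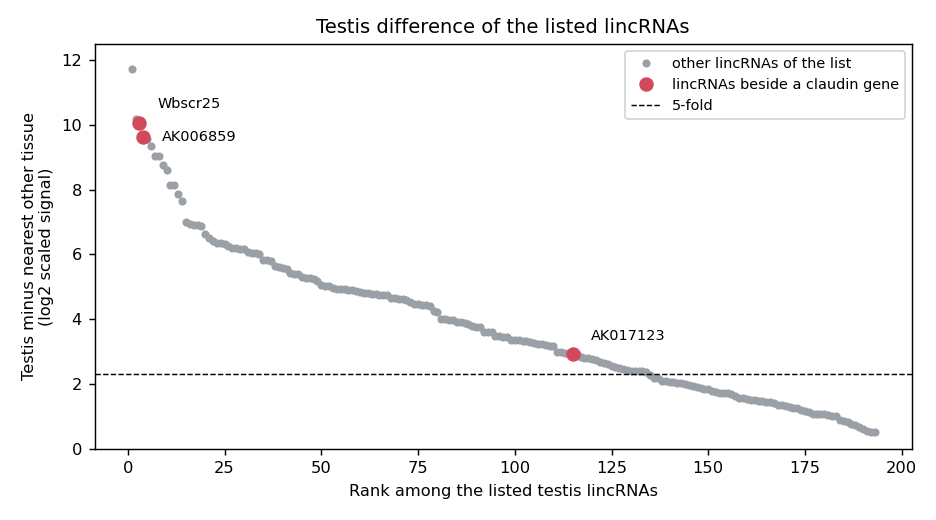
Difference in log2 scaled signal between testis and the nearest other tissue for the 193 listed lincRNAs, plotted in order of size as a description, with the 3 beside claudin genes in red and a dashed line at 5-fold. Wbscr25 and AK006859 stand at 10.07 and 9.63, AK017123 at 2.93.

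The study's criteria asked that a listed transcript be absent from the other tissues, so low signal there was part of the choice. Differences among those tissues were not themselves criteria, and the line arrays were not used. Pairs were tested where a probe was well above background on at least 2 arrays of a group. This left 3 of 27 pairs, all of them Wbscr25 in brain against another tissue, and 0 of the 9 pairs of lines could be tested. Each of the 3 passed through brain alone, with 2 arrays well above background against 0 in the other tissue. The filter thus favoured brain as the higher side. The p-values below are a description, and no support is drawn from them. The mean level of Wbscr25 was -3.21 ± 0.16 (SD, n = 3) in brain and -4.59 ± 0.74 (SD, n = 3) in kidney. The arrays did not overlap and the limma adjusted p was 0.00942, where 15.4% of all probes were called higher in brain than in kidney. No fold is given, because kidney was below the detection limit and that limit, on the scaled level, lies above the brain level. Heart averaged -3.88 ± 0.75 (SD, n = 3) and liver -3.46 ± 0.21 (SD, n = 3). Both overlapped brain, with limma adjusted p of 0.149 and 0.562; of all probes, 14.3% were called higher in brain than in heart and 16.4% than in liver. On slide 1 alone brain was below liver, by -0.17 on the log2 scale, and on slide 2 above it, by 0.46. Wbscr25 was not well above background on any liver array. The slide 1 liver array was replicate 1, the one with raised negative controls, and read 5.35. The direction of all 3 comparisons turned under another background correction, and other scalings added calls, so the order of brain and the other tissues depended on the processing. A level of Wbscr25 in heart, kidney, liver or any line was not detectable by the flag used here.

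In the cell lines none of the lincRNAs was well above background on any of the 9 arrays. Their signals there ran from 2.84 to 6.35 for Wbscr25, from 3.36 to 4.27 for AK006859 and from 3.19 to 4.64 for AK017123. These ranges lie within those of heart, kidney and liver. The positive and significant flag was given on 1 line array for Wbscr25, 0 for AK006859 and 1 for AK017123.

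The 3 lincRNAs were alike in pattern over the 24 arrays, with Pearson r of 0.972 between Wbscr25 and AK006859, 0.917 between Wbscr25 and AK017123 and 0.964 between AK006859 and AK017123. Such values describe the testis step that all listed lincRNAs share. Of 2616 other named probes detected in testis, those most like Wbscr25 were transcripts of Svip (r = 0.993), a small protein that binds VCP, then 1700064M15Rik (r = 0.988) and 1700016G14Rik (r = 0.987). Svip was also well above background on 2 of the 21 arrays outside testis. The nearest to AK006859 were mouselincRNA1042, 1700027A15Rik, a lincRNA listed beside the spermatid transition protein gene Tnp1, and a transcript of Atp8b3, a phospholipid flippase of the sperm acrosome, all at r = 0.998. Those nearest to AK017123 were Gm20434 (r = 0.987), Gm5397 (r = 0.985) and AK014916 (r = 0.985).

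Next to Wbscr25, the antisense transcripts at Abhd11 were read everywhere. AK041742 and 2010001M06Rik were well above background on all 24 arrays. AK041742 was highest in liver, at 11767, 7474 and 11138, and gave 3974, 3266 and 3626 in testis. Its scaled level was 7.97 ± 0.11 (SD, n = 3) in liver and 3.40 ± 0.03 (SD, n = 3) in testis, so testis was below liver by -4.57 on the log2 scale (SE 0.26, limma adjusted p = 6.9e-10). Of all probes, 66.5% were called lower in testis than in liver, and the value of AK041742 remained below liver in all 23 alternatives, from -4.61 to -1.46. 2010001M06Rik gave 111127 to 118163 in testis, against 45733 to 97606 in the other tissues and 53767 to 65014 in the lines. After scaling its order turned round: the testis level of 8.40 ± 0.16 (SD, n = 3) was below brain by -1.03 (SE 0.27, limma adjusted p = 0.00366; 54.9% of probes called lower) and below liver by -1.95 (SE 0.27, limma adjusted p = 9.2e-06), and without scaling it was above both, so no direction is given for it.

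**Figure D5:**
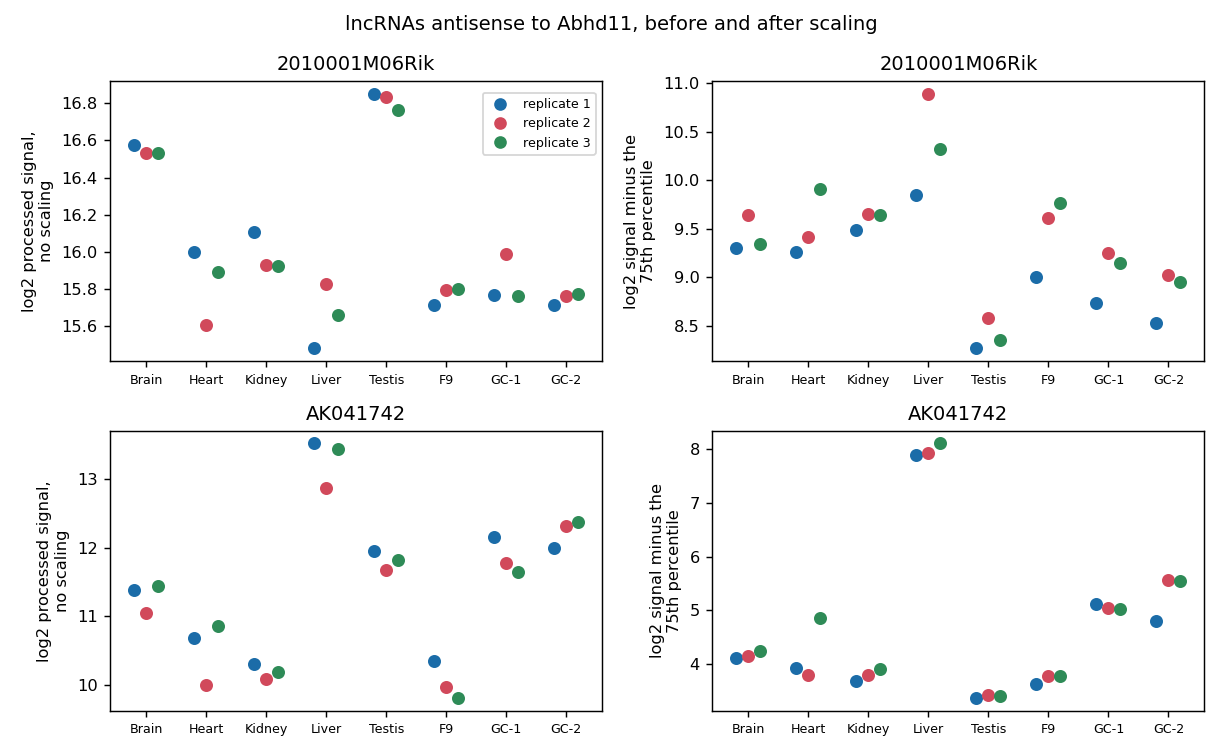
log2 signal of 2010001M06Rik (upper row) and AK041742 (lower row) on each array, before scaling (left) and after subtraction of the 75th percentile (right), 1 point per array with colours for replicate numbers. Liver is highest for AK041742 in both panels, while testis is highest for 2010001M06Rik on the left and lowest on average on the right.

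The tables also name 6 lncRNA probes tied to other junction genes. Gm13189 lies beside the epithelial polarity gene Frmd4a, and 4930593C16Rik beside Ctnnb1, which encodes β-catenin of the adherens junction. Wbscr25 was also flagged on 2 brain arrays, but these 2 probes shared the pattern of AK006859 and AK017123. Both were well above background on the 3 testis arrays and on 0 of the 21 others. Their smallest bounds of testis over another tissue were 3.14-fold and 2.21-fold, and like the claudin neighbours they came from the testis-specific tables. The Frmd4a lncRNA was well above background on the 3 brain arrays and 1 heart array and on 0 testis arrays. The 3 other probes, all from outside the testis tables, were read in every group. With both Abhd11 antisense probes they gave 35 comparisons of testis with another tissue or line. Of these, 29 were called by limma at an adjusted p of 0.05 or less, 5 with testis higher and 24 with testis lower. Over all probes and the same contrasts, 18.0% to 20.4% were called higher and 54.9% to 66.5% lower, so the split is close to that of all probes. The 24 include 6 of 2010001M06Rik, for which no direction is given. Of the 29, 11 kept direction and call in every alternative tried.

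A Jam2 lncRNA, from the gene of junctional adhesion molecule 2, was highest in F9 and heart. Its level was 2.37 ± 0.19 (SD, n = 3) in testis, 6.32 ± 0.03 (SD, n = 3) in heart and 0.62 ± 0.10 (SD, n = 3) in kidney. Testis differed by -3.95 from heart (SE 0.22, limma adjusted p = 5.3e-10; 63.6% of probes called lower) and by 1.74 from kidney (SE 0.22, limma adjusted p = 5.2e-06; 19.3% called higher). F9 reached 7.16 ± 0.28 (SD, n = 3) and GC-2 was at 0.02 ± 0.12 (SD, n = 3). Gm12846, which lies in Inadl, a gene for a tight junction scaffold protein, was highest in kidney at 7.97 ± 0.95 (SD, n = 3). In testis it was at 4.03 ± 0.18 (SD, n = 3), above brain by 2.06 (SE 0.39, limma adjusted p = 0.00032; 20.4% called higher) and below kidney by -3.93 (SE 0.39, limma adjusted p = 4.6e-07; 61.5% called lower). Gm6921, in the polarity gene Pard3, was lower in testis than in F9, GC-1 and GC-2, by -3.78, -3.005 and -3.42 (SE 0.22 each). There limma called 63.9%, 62.4% and 61.3% of all probes lower in testis.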

How the data were processed

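The authors labelled total RNA with Cy3, hybridized it to Arraystar mouse lncRNA arrays and quantified the scans with Feature Extraction 11.5.1.1. The deposited files hold, per array, the intensity of 62243 spots, background-subtracted and detrended by the software but not normalized between arrays; the deposited value table holds the same processed signals (largest relative difference 0.000228). Probe names and positions came from the supplementary tables, which identify 3478 of 60804 probes (5.72%); gene positions came from RefSeq on GRCm38. The authors' folds and p-values in those tables were not used.

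The log2 processed signal minus the 75th percentile of each array over all transcript probes was used, with 103 outlier-flagged spots left out. A probe counted as detected where the scanner software flagged it well above background. limma 3.58.1 (R 4.3.3; lmFit, eBayes, Benjamini-Hochberg over all probes) was fitted to the 15 tissue arrays and to the 12 arrays of testis and lines, after a check on simulated data. Lower bounds set the mean testis level against the mean, over the other group's arrays, of the lowest well-above-background signal or the probe's own signal, whichever was higher. Tables were made with Python 3.11.15, numpy 2.4.6, pandas 2.3.3 and matplotlib 3.10.9. The genes named were the 3 lincRNAs, the 2 probes the tables place within 100 kb, the 6 tied to other junction genes, and the 3 probes with the highest Pearson r to each lincRNA among named probes detected in testis. The members and lists were chosen with earlier results of these data known. Replicate number 1 of every group shared slide 1, brain, kidney, liver and testis replicates 2 and 3 shared slide 2, and those of heart and the lines slide 3. Liver replicate 1 and testis replicate 2 each had a recorded scan time different from that of the other arrays of their slide. Alternatives were other scalings (the percentile over 13551 probes well above background on every array, quantile, none), normexp background correction (offset 50; run on the median signal, since the files used hold no mean signal), a filter on dim probes, slide and replicate blocks, 1 fit over 24 arrays, each array left out, another detection flag and the methods' t-test.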

Additional observations from a re-analysis of the deposited data

How the results depend on the processing

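High testis signal put the 3 lincRNAs on the list, so their testis differences are a description under the alternatives as well. Testis was above the nearest other tissue in each of 23 alternatives, but many of these could not move the difference. Testis, brain and liver were balanced over slides and replicate numbers, so the blocks left it unchanged. So did the filter on dim probes and leaving out an array of a tissue not compared. The size moved with the scaling. The log2 difference of Wbscr25, AK006859 and AK017123 was 10.76, 10.95 and 4.25 with the percentile over detected probes, 11.40, 10.93 and 4.09 with quantile normalization, 11.36, 12.74 and 6.03 with no scaling and 7.51, 6.75 and 0.56 with normexp. With normexp AK017123 missed the 5-fold criterion, and 2 of 3 lincRNAs and 1524 probes were called testis-specific; with no scaling 5609 probes were. The smallest lower bound over an undetected tissue ran over the alternatives from 7.31 to 11.25 (log2) for Wbscr25, 6.596 to 10.80 for AK006859 and 0.30 to 4.01 for AK017123. With single arrays left out the differences ran from 9.98 to 10.13, 9.36 to 10.14 and 2.76 to 3.12, and the probes called from 2960 to 3153.

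Wbscr25 in brain was unstable; the values are differences of fitted levels against groups below the detection limit and stand for no fold. With normexp it was below heart by -0.23, kidney by -0.16 and liver by -0.55 (adjusted p = 0.00314). It was called above liver with quantile normalization (1.53) and no scaling (2.06), and above heart with no scaling (1.48). Within slide 1 the plain difference of 1 brain array from 1 liver array was -0.17. That liver array was replicate 1, whose negative controls were raised. The methods' t-test gave an adjusted p of 0.0631 for kidney, at the same difference of 1.38. Left-out arrays gave 0.31 to 1.06 for heart (called only without heart replicate 2, adjusted p = 0.0396), 1.103 to 1.799 for kidney and 0.17 to 0.37 for liver. Same-numbered arrays correlated in their deviations at -0.14 to 0.23 in the tissues and 0.02 to 0.29 in testis and lines. Such arrays often shared a slide, so these values cannot tell a pairing by number from the slide. The replicate block cannot move these differences, 1.38 for kidney among them, because every group holds each replicate number once. It can change the adjusted p alone. With it the limma adjusted p for kidney was 0.0155 and no call of Wbscr25 changed. 2010001M06Rik (limma adjusted p = 0.0367) and Gm12846 (limma adjusted p = 0.0489) were then called lower in testis than in GC-2. The methods' t-test called 30484 probes between brain and kidney after Benjamini-Hochberg adjustment (35170 at an unadjusted p of 0.05) and limma 30330; for brain and heart it called 15385 and limma 30329.

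Relative to the scaling used, the median testis probe moved by 1.11 with the percentile over detected probes, 0.27 with quantile normalization, 1.72 with no scaling and -0.74 with normexp. Of the 35 comparisons of neighbouring and junction probes, 17 changed direction somewhere, and the cause was not tested. With the percentile over detected probes, testis minus the other group became 0.042 for kidney, 0.53 for F9, 0.83 for GC-1 and 1.11 for GC-2 (2010001M06Rik), 0.23 for heart, 0.84 for kidney and 1.26 for F9 (AK041742), 0.24 for GC-1 (Jam2), and 0.98 for GC-1 and 0.86 for GC-2 (Gm12846). With quantile normalization it became 0.52 for heart, 0.44 for kidney, 0.31 for liver, 1.405 for F9, 1.26 for GC-1 and 1.397 for GC-2 (2010001M06Rik), 0.093 for kidney and 0.29 for F9 (AK041742), and 0.14 for GC-1 and 0.0077 for GC-2 (Gm12846). With no scaling it became 0.27 for brain, 0.98 for heart, 0.83 for kidney, 1.16 for liver, 1.05 for F9, 0.97 for GC-1 and 1.06 for GC-2 (2010001M06Rik), 0.52 for brain, 1.31 for heart, 1.63 for kidney and 1.78 for F9 (AK041742), 0.61 for liver (Gm6921), 0.53 for brain and 0.38 for GC-1 (Jam2), and 1.12 for GC-1 and 0.81 for GC-2 (Gm12846). With normexp it became 0.081 for kidney and 0.24 for F9 (AK041742). Left-out arrays gave -0.10 to 0.18 for Jam2 against liver. What the signal over background limits is the low end: below the lowest well-above-background signal of an array, levels of the 3 lincRNAs outside testis have no order.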

Other observations

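The testis arrays agreed differently for the 3 lincRNAs. Testis replicate 1 minus the mean of replicates 2 and 3 was 0.03 on the log2 scaled level for Wbscr25, -1.54 for AK006859 and -0.57 for AK017123. Among the other 190 listed lincRNAs this difference had a median of -0.10 and a range from -2.20 to 1.06, and it was -1 or lower for 6 of them and 1 or higher for 1. Over all probes well above background on the 3 testis arrays its median was 0.03. Testis replicate 1 lay on another slide than replicates 2 and 3, and replicate 2 was scanned apart from replicate 3. The part of the slide or the scan in these differences was not tested.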
